A study of Mus musculus with 9 samples.

Results

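The 10 genes described here encode matricellular proteins and their close companions in the extracellular matrix: Tgfbi, periostin (Postn), tenascin-C (Tnc), tenascin-X (Tnxb), fibronectin (Fn1), Sparc, osteopontin (Spp1), the thrombospondins Thbs1 and Thbs2, and nephronectin (Npnt). They were chosen by gene symbol in the platform annotation, which gave 20 array features for the 10 genes, of 62976 features and 24306 genes in all. Gene expression was measured with 9 one-colour Agilent arrays, 3 for each of 3 populations sorted from the lungs of mouse fetuses, and the design gives 3 mice per group. All groups came from dams injected with tamoxifen (0.1 mg per g body weight) at embryonic day E15.5, and at E18.5 the RFP-positive lung cells were separated by their Acta2 and PDGFRalpha staining. The strain, the Cre driver behind the RFP label and whether the groups share mice are not given in the sources used here. The SMC group (SMA high, PDGFRalpha low) is labelled as smooth muscle cells of airways and vessels. The MYF group (SMA low, PDGFRalpha high) is labelled as progenitors of alveolar myofibroblasts, and the INM group (low for both) as intermediate undifferentiated progenitors. The series asks how airway smooth muscle differentiates, and the groups were compared as SMC minus MYF, MYF minus INM and SMC minus INM.

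Matricellular proteins are secreted into the matrix, where they mainly modulate contacts between cells, matrix and growth factors and add little to its mechanical frame. Many are ligands of integrins, and Tgfbi, Tnc, Thbs1, Postn and Fn1 are known targets of TGF-beta signalling. In the developing lung they are made by mesenchyme at sites of branching and of septation, the ingrowth of ridges that divides the air sacs, and some also by epithelium, endothelium or macrophages.

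The promoter sequences of both sets of genes that separate MYF from INM below, Tgfbi and Tnc on the one side and Spp1 and Npnt on the other, are shown first, since members of a set moved together. Each run is the 250 bases before the annotated start in RefSeq (GRCm38.p6), 5′ to 3′ on the strand of the gene. Capitals mark CAGAC on either strand, a short motif that SMAD proteins, the transcription factors of TGF-beta signalling, can bind. Where a gene has 2 start sites in the table, the window with more matches was printed, or the more upstream one where neither holds a match.
Tgfbi, chr13:56609336-56609585, plus strand: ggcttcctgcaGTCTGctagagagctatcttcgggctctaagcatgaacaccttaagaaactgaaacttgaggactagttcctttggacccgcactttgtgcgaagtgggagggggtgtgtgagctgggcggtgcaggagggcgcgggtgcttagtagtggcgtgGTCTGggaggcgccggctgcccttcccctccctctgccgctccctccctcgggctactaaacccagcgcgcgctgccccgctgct
Tnc, chr4:64046937-64047186, minus strand: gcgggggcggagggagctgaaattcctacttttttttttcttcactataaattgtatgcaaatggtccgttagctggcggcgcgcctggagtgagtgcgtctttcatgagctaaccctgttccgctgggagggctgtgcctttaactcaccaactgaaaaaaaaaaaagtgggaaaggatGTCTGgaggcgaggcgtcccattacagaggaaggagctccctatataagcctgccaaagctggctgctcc
Spp1, chr5:104434861-104435110, plus strand: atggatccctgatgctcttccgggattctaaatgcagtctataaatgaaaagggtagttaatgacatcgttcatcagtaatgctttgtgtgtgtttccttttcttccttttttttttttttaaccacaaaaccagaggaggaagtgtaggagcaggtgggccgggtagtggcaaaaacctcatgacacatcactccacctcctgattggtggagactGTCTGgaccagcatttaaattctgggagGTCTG
Npnt, chr3:132950292-132950541, minus strand: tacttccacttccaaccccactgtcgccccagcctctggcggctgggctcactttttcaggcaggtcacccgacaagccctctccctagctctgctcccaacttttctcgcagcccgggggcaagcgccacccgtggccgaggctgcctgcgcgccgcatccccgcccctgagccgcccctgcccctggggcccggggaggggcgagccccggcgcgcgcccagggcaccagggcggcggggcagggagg
The Tgfbi window held 2 matches, at 239 and 85 bases before the start. The printed Spp1 window held 2 as well, at 33 and 5 bases before it, and a further Spp1 window held 1, at 41 bases before its own start. The printed Tnc window held 1, at 70 bases before the start, and the more upstream Tnc window held 0, while neither window of Npnt held a match. Of all 32851 promoter windows of this length, 42.2% held at least 1 match and 11.7% held 2 or more, so a match is common, and it is a description of the letters only. The table had windows for 8 of the 10 genes, and Fn1 and Thbs1 are named here without a sequence.

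SMC replicate 1 stood apart, and this bears on each value below. Across features, Pearson r between SMC replicate 1 and each of 8 further arrays was 0.425 to 0.451, whereas the 28 pairs without it had 0.864 to 0.970 (features are not replicates). The probes of a gene disagreed on it: those of Sparc read 2.90, 12.83 and 11.30 (log2 signal) on SMC replicate 1, against 14.22, 13.44 and 8.69 on SMC replicate 2. Group means and differences are therefore given for 8 arrays (2 SMC, 3 MYF and 3 INM), with values on all 9 arrays for the 10 genes beside their calls and for the gene lists beside their counts. Signals are log2 values, the lowest in the table is 1.65, the highest 16.00 and the median feature of an array 5.17, and no detection calls came with them. A difference passed when limma's adjusted p, taken over all genes, was under 0.05. The fit shared its estimate of each gene's spread among all groups. SMC replicate 1 therefore changed the SE and p of a MYF minus INM difference, and left the difference itself as it was. Among the genes of the sort, Pdgfra had 6.93 and 6.89 in SMC replicates 2 and 3, 13.04 to 13.87 in MYF and 8.30 to 8.66 in INM. Acta2 had 15.88 and 14.79, 13.87 to 14.06, and 13.43 to 13.84 in the same order. Markers of cell types outside the named ones were present too. The summed signal of 18 epithelial markers, on the log2 scale, was 16.47 and 17.78 in SMC replicates 2 and 3, 13.20 to 13.79 in MYF and 17.99 to 18.16 in INM, and that of 14 cardiac muscle markers was 16.56 and 18.18 in SMC, 10.83 to 11.69 in MYF and 14.00 to 14.73 in INM. Some genes of both sums reached 16.00, the highest value in the table, and saturation was not tested.

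**Figure D1:**
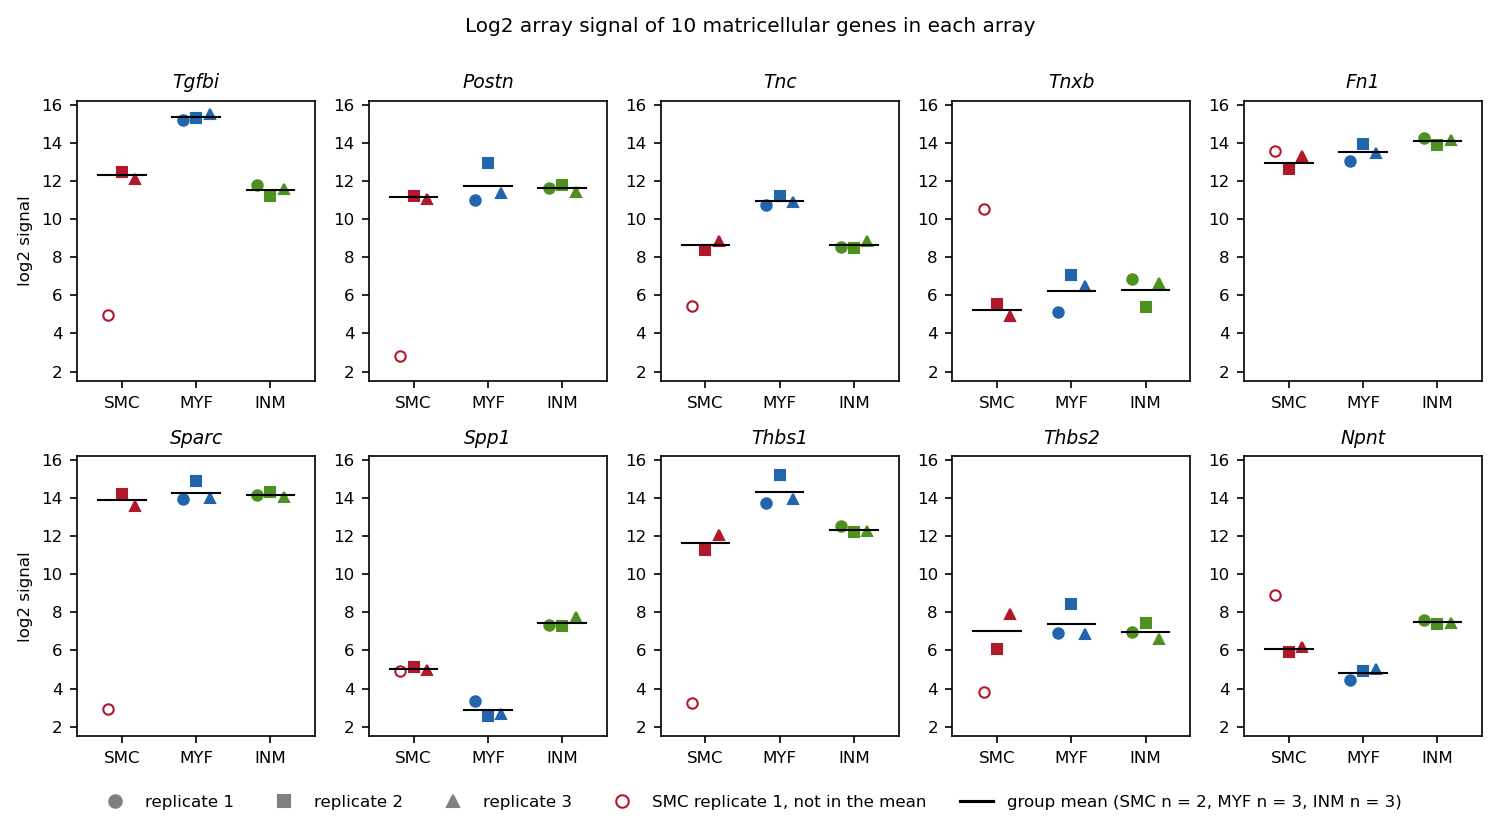
Log2 array signal of the 10 genes (1 probe each) in SMC, MYF and INM. Each point is 1 array, its shape gives the replicate number, the open circle is SMC replicate 1, and bars are means without that array. Tgfbi, Tnc and Thbs1 were highest in every MYF array, and Spp1 and Npnt were lowest in every MYF array.

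MYF cells carried more RNA of Tgfbi, Tnc and Thbs1 and less of Spp1 and Npnt than INM cells. Of the 10 genes, 3 rose and 2 fell in MYF minus INM, against 10.7% of all 24284 genes (4.3% higher and 6.36% lower). The same 5 genes passed between SMC and MYF: Spp1 and Npnt were higher in SMC and Tgfbi, Tnc and Thbs1 lower, against 8.25% of all 24288 genes (4.69% higher and 3.56% lower). Between SMC and INM only Spp1 passed, lower in SMC, against 0.292% of all 24285 genes (0.124% higher and 0.169% lower). Groups did not overlap in 5 of the 10 genes in SMC minus MYF, in 5 in MYF minus INM and in 6 in SMC minus INM, against 40.3%, 35% and 28.2% of all genes. These comparisons share arrays, so their counts are not independent. On all 9 arrays the counts were 0 of 10 in SMC minus MYF (5 at an unadjusted p under 0.05 by limma), 1 of 10 in MYF minus INM, which was Spp1, and 0 of 10 in SMC minus INM (1 at an unadjusted p under 0.05), against 0.659%, 1.1% and 0% of all genes. In bulk RNA of sorted cells, fewer cells of a type and less RNA per cell cannot be told apart.

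**Figure D2:**
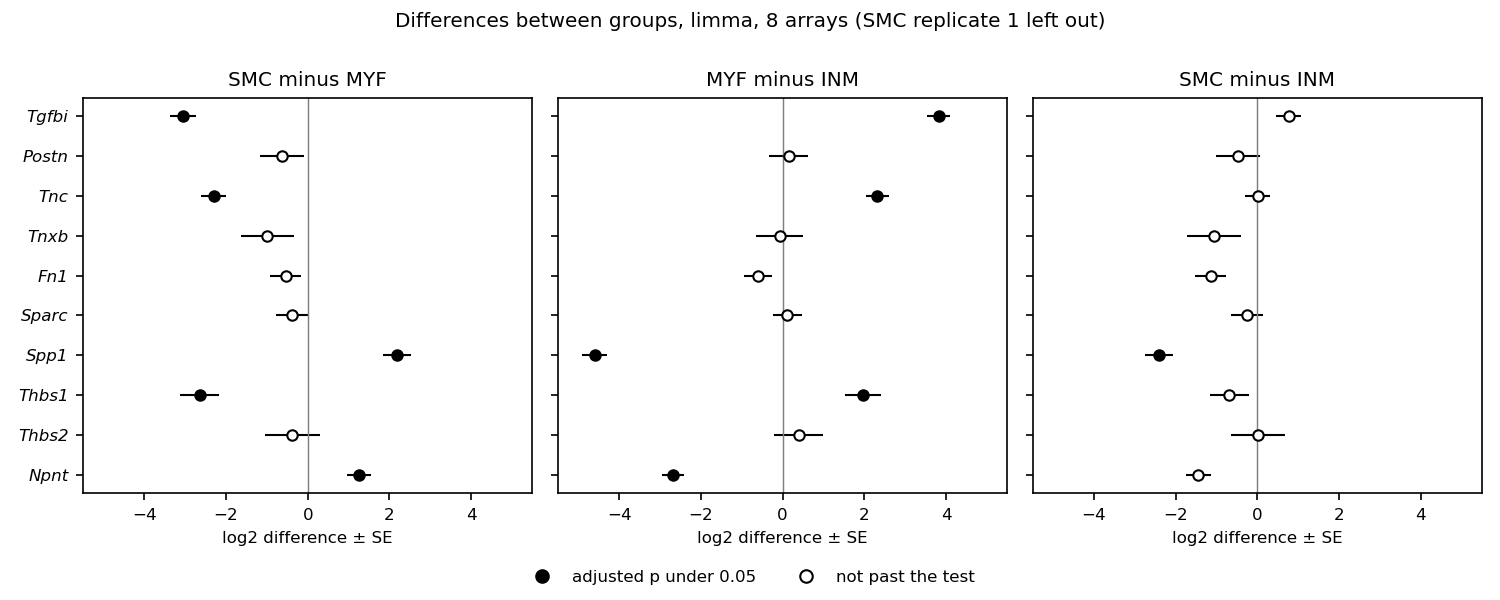
Log2 difference with its SE for each of the 10 genes in SMC minus MYF, MYF minus INM and SMC minus INM, by limma on 8 arrays. Filled points passed the test: 5 genes in each of the first pair of comparisons, with opposite signs, and Spp1 alone in SMC minus INM.

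Tgfbi encodes a secreted protein of fasciclin domains that TGF-beta induces and that links collagens to integrins. Its log2 signal was 12.47 and 12.12 in SMC replicates 2 and 3, 15.19, 15.33 and 15.51 in MYF, and 11.78, 11.20 and 11.59 in INM, while SMC replicate 1 had 4.99. No MYF array overlapped an array of another group, and SMC replicates 2 and 3 lay above the INM arrays, with SMC replicate 1 below them. The MYF mean was 3.82 ± 0.28 above that of INM (SE, adjusted p = 0.000385), a 14.1-fold difference in signal. The SMC mean was 3.05 ± 0.31 below that of MYF (adjusted p = 0.00253). With SMC replicate 1 kept, MYF minus INM stayed at 3.82, now ± 1.70 from the wider shared spread, and SMC minus MYF was -5.48 ± 1.70. Neither passed (adjusted p = 0.524 and 0.204). SMC minus INM was 0.77 ± 0.31 (adjusted p = 0.36), and with that array it took the other sign, at -1.66 ± 1.70 (adjusted p = 0.615). The MYF values lie near 16.00, the highest value in the table, and saturation of the signal was not tested.

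Periostin, the other protein of fasciclin domains here, is a matrix protein of fibroblasts that binds integrins and collagen. The probe used for Postn had 11.22 and 11.06 in SMC replicates 2 and 3, 10.99, 12.93 and 11.36 in MYF, and 11.64, 11.79 and 11.42 in INM. The range of the MYF arrays covered that of the other groups, and the differences were -0.62 ± 0.54 for SMC minus MYF, 0.15 ± 0.48 for MYF minus INM and -0.48 ± 0.54 for SMC minus INM (adjusted p = 0.509, 0.904 and 0.757). Probes of Postn disagreed. A pair of further probes gave MYF minus INM differences of 0.04 ± 0.43 and -0.08 ± 0.48, whereas a dim probe annotated to another transcript record had 3.43 and 3.17 in SMC, 6.62, 6.72 and 5.08 in MYF, and 4.36, 2.91 and 4.35 in INM. Its SMC and INM values and the MYF value of 5.08 lie under the median feature of 5.17. It is not known whether they lie above background, and the transcript that the probe reads was not checked. Tested with every probe as its own unit, that probe was at -2.84 ± 0.63 in SMC minus MYF and 2.27 ± 0.56 in MYF minus INM (adjusted p = 0.0367 and 0.0467), while the adjusted p of the 3 bright probes in these contrasts were 0.447 to 0.971.

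Tenascin-C is a large matrix glycoprotein that appears at sites of branching, septation and repair. Its brighter probe had 8.40 and 8.87 in SMC replicates 2 and 3, 10.72, 11.19 and 10.91 in MYF, and 8.55, 8.48 and 8.85 in INM, with 5.46 on SMC replicate 1. The MYF arrays stood above all others, whereas SMC and INM overlapped. The differences were -2.30 ± 0.31 for SMC minus MYF (adjusted p = 0.00599) and 2.32 ± 0.28 for MYF minus INM (adjusted p = 0.00225), a 4.98-fold difference for the second of these. SMC minus INM was 0.01 ± 0.31 (adjusted p = 0.994), and -1.05 ± 0.83 on all 9 arrays (adjusted p = 0.562). On all 9 arrays the first pair became -3.36 ± 0.83 and 2.32 ± 0.83 and did not pass (adjusted p = 0.12 and 0.332). A further Tnc probe gave -2.34 ± 0.46 and 2.09 ± 0.41 (adjusted p = 0.0245 and 0.0201 over all probes), so both probes passed in both contrasts.

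Tenascin-X, which organises collagen fibrils in connective tissue, gave no such pattern. Tnxb had 5.54 and 4.92 in SMC replicates 2 and 3, 5.11, 7.07 and 6.48 in MYF, and 6.84, 5.40 and 6.64 in INM, at or above the level of the median feature of an array in most. The groups overlapped in each comparison. MYF minus INM was -0.07 ± 0.58 and SMC minus MYF -0.99 ± 0.65 (adjusted p = 0.964 and 0.376). SMC replicate 1 had 10.51, the highest Tnxb value of the 9, and with it SMC minus MYF took the other sign, at 0.77 ± 1.35 (adjusted p = 0.764).

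Thrombospondin-1 activates latent TGF-beta and binds the receptors Cd36 and Cd47. The brighter Thbs1 probe had 11.28 and 12.05 in SMC replicates 2 and 3, 13.74, 15.19 and 13.97 in MYF, and 12.53, 12.21 and 12.27 in INM, and SMC replicate 1 had 3.24. Every MYF array lay above every array of the other groups, and both SMC arrays lay below the INM arrays. The differences were -2.64 ± 0.48 for SMC minus MYF (adjusted p = 0.0167) and 1.97 ± 0.43 for MYF minus INM (adjusted p = 0.0259), and on all 9 arrays -5.45 ± 1.97 and 1.97 ± 1.97 (adjusted p = 0.271 and 1). The call in MYF minus INM was lost when MYF replicate 3, INM replicate 1, INM replicate 2 or INM replicate 3 was left out (adjusted p = 0.0636, 0.0723, 0.0901 and 0.0856). It was also lost with the mean of both probes (1.77, adjusted p = 0.0692) and with the replicate number as a block. This call stood under 11 of the 17 alternatives that left SMC replicate 1 out or down-weighted it. Centring and a minimum difference of 1, which are among them, could hardly change it. The call in SMC minus MYF was lost with the mean of both probes (-2.20, adjusted p = 0.053), with the replicate number as a block (adjusted p = 0.0641) and with the compared groups alone (adjusted p = 0.073). The dimmer probe by itself gave -1.77 ± 0.74 in SMC minus MYF and 1.58 ± 0.67 in MYF minus INM (adjusted p = 0.19 and 0.204 over all probes). SMC minus INM was -0.68 ± 0.48 (adjusted p = 0.605).

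Thrombospondin-2, which regulates collagen fibrils and restrains vessel growth, did not pass in any comparison. Thbs2 had 6.09 and 7.93 in SMC replicates 2 and 3, 6.90, 8.42 and 6.84 in MYF, and 6.95, 7.42 and 6.60 in INM. The groups overlapped, and the differences were -0.38 ± 0.67, 0.40 ± 0.60 and 0.02 ± 0.67 for SMC minus MYF, MYF minus INM and SMC minus INM (adjusted p = 0.765, 0.758 and 0.995).

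**Figure D3:**
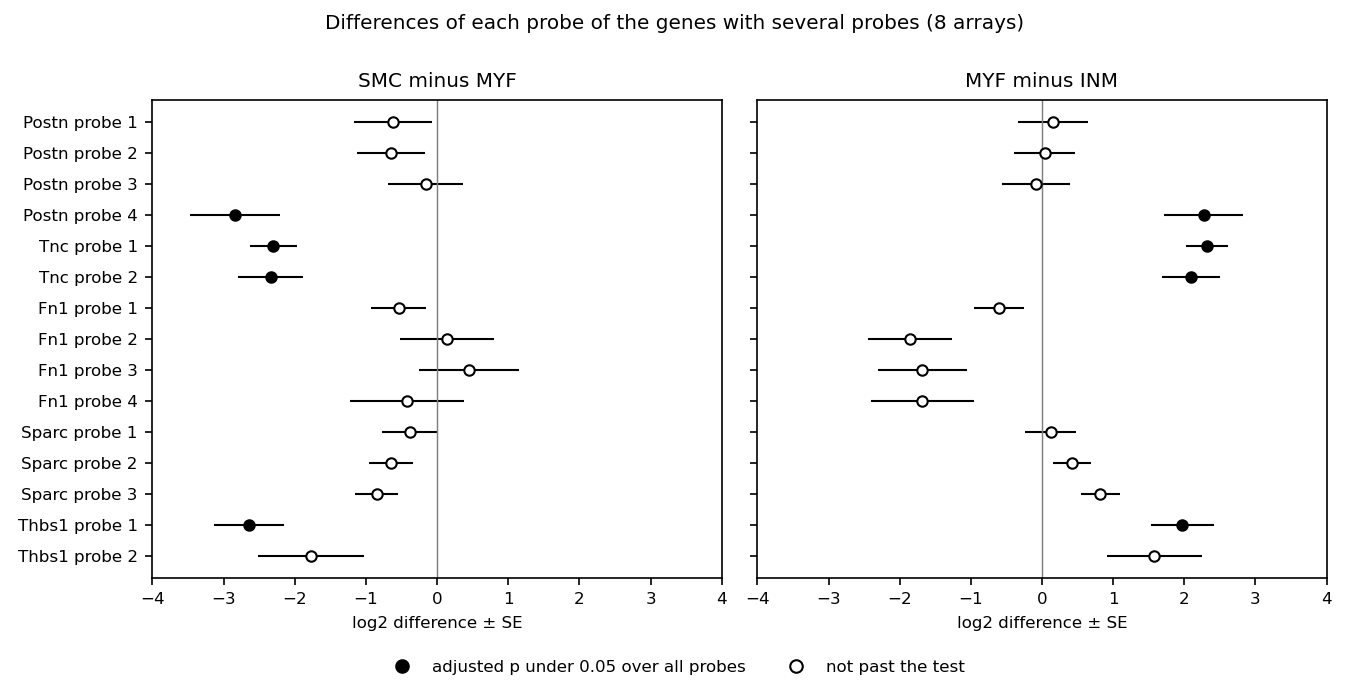
Log2 difference with its SE for every probe of the 5 genes with more than 1 probe, on 8 arrays, with filled points past the test over all probes. Both Tnc probes, 1 of 2 Thbs1 probes and 1 of 4 Postn probes passed in both comparisons.

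Osteopontin is a phosphorylated integrin and Cd44 ligand made by epithelium, macrophages and mineralising cells. Spp1 had 5.13 and 4.97 in SMC replicates 2 and 3, 3.35, 2.58 and 2.65 in MYF, and 7.36, 7.27 and 7.74 in INM. SMC replicate 1 had 4.90, close to its group and also to the median feature of an array (5.17). The 3 groups did not overlap in any comparison, with INM highest and MYF lowest. MYF minus INM was -4.60 ± 0.31 (adjusted p = 0.000351), a 24.2-fold difference, and it passed on all 9 arrays too (adjusted p = 0.00841). SMC minus MYF was 2.19 ± 0.34 (adjusted p = 0.00993, and 0.0754 on all 9 arrays). SMC minus INM was -2.41 ± 0.34 (adjusted p = 0.0455, and 0.209 on all 9 arrays), and this call was lost when any 1 of the 3 MYF or 3 INM arrays was left out (adjusted p = 0.0776 to 0.153). The MYF values lie under the median feature of the arrays, and with no detection calls it is not known whether they lie above background.

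Nephronectin is the ligand of integrin alpha8 beta1 and lies in basement membranes below epithelium. Npnt had 5.92 and 6.19 in SMC replicates 2 and 3, 4.47, 4.91 and 5.01 in MYF, and 7.62, 7.41 and 7.44 in INM, and without SMC replicate 1 the groups did not overlap. MYF minus INM was -2.69 ± 0.27 (adjusted p = 0.00108), a 6.47-fold difference, and -2.69 ± 0.76 on all 9 arrays (adjusted p = 0.172). SMC minus MYF was 1.26 ± 0.30 (adjusted p = 0.0421, and 0.253 on all 9 arrays), a call that was lost when any 1 of the 8 arrays other than SMC replicate 2 was left out (adjusted p = 0.0687 to 0.123). SMC minus INM was -1.44 ± 0.30 (adjusted p = 0.115), with both SMC arrays below the INM arrays. SMC replicate 1 had 8.89, above all other arrays. As for Spp1, the MYF values lie under the median feature, and it is not known whether they lie above background.

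The order INM, SMC, MYF of the Spp1 and Npnt means was also that of the summed signals of epithelial and endothelial markers. Bright epithelial genes lay at the highest value in the table: Scgb1a1 and Scgb3a2 had 16.00 in SMC replicate 3 and 15.98 to 16.00 in INM. The effect of saturation on the epithelial sum was not tested. Between SMC and INM, 0 of 18 epithelial and 0 of 13 endothelial markers passed limma's test, against 0.292% of all genes (7 and 2 at an unadjusted p under 0.05). Their median differences in SMC minus INM were -1.30 and -0.76. The endothelial markers Prox1, Sox17 and Tek went the other way (2.88, 0.36 and 0.40). All 18 epithelial markers were lower in MYF than in INM and all 18 higher in SMC than in MYF, with median differences of -5.44 and 4.00, against 0.05 and -0.05 over all genes. Cdh1, 1 of the 18, had a value on 1 MYF array only, the other cells being empty. Of 13 endothelial markers, 12 were lower in MYF than in INM and 12 higher in SMC than in MYF, and their summed log2 signal was 12.63 and 13.17 in SMC, 9.39 to 9.66 in MYF and 13.57 to 13.66 in INM. On all 9 arrays, 10 epithelial and 3 endothelial markers were lower in MYF than in INM, and 7 and 2 higher in SMC than in MYF. Of 13 leukocyte markers, 9 were higher in SMC than in MYF, and 1 was higher and 6 lower in MYF than in INM (2, 0 and 1 on all 9 arrays). Their median differences were 2.83 and -2.67. They had a summed signal of 15.91 and 16.14 in SMC, 15.69 to 15.92 in MYF and 15.76 to 16.16 in INM, most of it from Itgam, which had 15.63 and 15.59 in SMC, 15.45 to 15.69 in MYF and 15.22 to 15.71 in INM. The sum of the other 12, taken after these values were seen, was 13.40 and 14.47 in SMC, 12.94 to 13.32 in MYF and 13.92 to 14.25 in INM. Epcam had 8.22 and 10.43 in SMC, 4.80 to 5.87 in MYF and 9.86 to 10.49 in INM. Its MYF values lie around the median feature of 5.17, and it is not known whether they lie above background. Of 14 cardiac muscle markers, 12 were higher in SMC than in MYF and 6 lower in MYF than in INM (4 and 0 on all 9 arrays, with 5 at an unadjusted p under 0.05 by limma in the second). Of 9 megakaryocyte and platelet markers, 1 was higher in SMC than in MYF and 0 passed in MYF minus INM by limma (0 at an unadjusted p under 0.05). Of 7 mesothelial markers, 1 was higher in SMC than in MYF and 2 lower in MYF than in INM. Of 9 cartilage markers, 1 was lower in MYF than in INM, and of 7 erythroid markers 0 passed limma's test in these contrasts (3 at an unadjusted p under 0.05 in SMC minus MYF and 1 in MYF minus INM). Of all genes, 8.25% passed in SMC minus MYF and 10.7% in MYF minus INM. The part of the listed cell types in the Spp1 and Npnt differences was not tested.

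**Figure D4:**
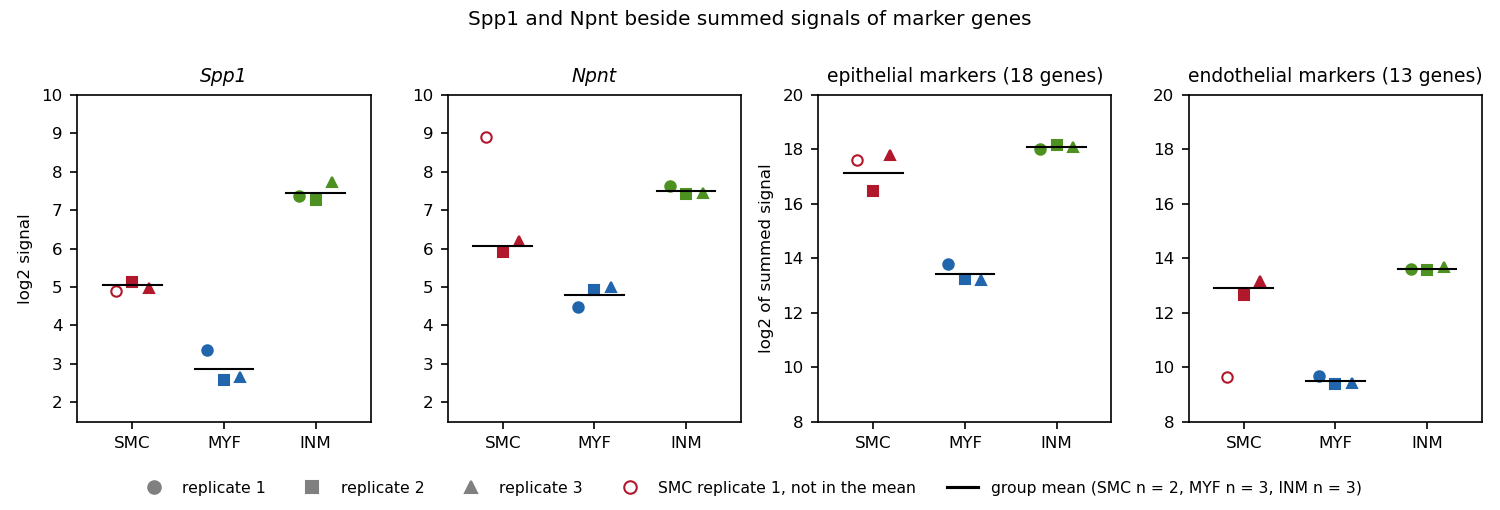
Log2 signal of Spp1 and Npnt, and log2 of the summed signal of 18 epithelial and 13 endothelial marker genes, in each array of SMC, MYF and INM. Points are arrays, the open circle is SMC replicate 1 and bars are means without it. MYF is lowest and INM highest by the mean in all 4 panels.

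Fibronectin, the main adhesive glycoprotein of interstitial matrix, was bright in every group. The Fn1 probe used had 12.61 and 13.32 in SMC replicates 2 and 3, 13.07, 13.95 and 13.49 in MYF, and 14.27, 13.89 and 14.15 in INM. The SMC arrays lay below the INM arrays, and the other pairs of groups overlapped. SMC minus INM was -1.14 ± 0.38 (adjusted p = 0.28) and MYF minus INM -0.60 ± 0.34 (adjusted p = 0.325). A further 3 probes of Fn1 gave larger MYF minus INM differences, of -1.68 to -1.86, and none passed (adjusted p = 0.101 to 0.208 over all probes).

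Sparc binds collagen and calcium and helps collagen to assemble. Its probe had 14.22 and 13.59 in SMC replicates 2 and 3, 13.96, 14.90 and 13.99 in MYF, and 14.15, 14.31 and 14.03 in INM. The groups overlapped and no difference passed, at -0.38 ± 0.39, 0.12 ± 0.35 and -0.25 ± 0.39 for SMC minus MYF, MYF minus INM and SMC minus INM (adjusted p = 0.584, 0.884 and 0.83). A further pair of Sparc probes had MYF minus INM differences of 0.42 ± 0.27 and 0.82 ± 0.27 (adjusted p = 0.421 and 0.111 over all probes). No difference of Postn, Tnxb, Fn1, Sparc or Thbs2 passed on all 9 arrays either (adjusted p = 0.423 to 1).

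The MYF arrays differed among themselves in 7 of the 10 genes in the same way. Postn, Tnc, Tnxb, Fn1, Sparc, Thbs1 and Thbs2 were each highest in MYF replicate 2 among the MYF arrays, which was the case for 31.6% of 24046 genes with a value on all 8 arrays. This array was not named in advance, so the count and the share beside it are a description only. MYF replicate 2 lay above the mean of the other MYF arrays by 1.75 in Postn, 1.55 in Thbs2, 1.34 in Thbs1 and 1.28 in Tnxb. The lead was smaller in Sparc (0.93), Fn1 (0.67) and Tnc (0.37). Tgfbi was at -0.02, Spp1 at -0.42 and Npnt at 0.17 by the same measure. Leaving MYF replicate 2 out left 5 of the 10 genes called in MYF minus INM and 4 in SMC minus MYF, against 8.49% and 6.51% of all genes.

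Other matricellular genes did not share one direction. Of 24, 1 rose and 4 fell in MYF minus INM, where 10.7% of all genes passed. The median difference was -0.14, against 0.05 over all genes. Egfl6, a relative of nephronectin, was at -5.17 ± 0.37 (adjusted p = 0.00038) and the CCN family gene Ccn5 at -3.78 ± 0.40 (adjusted p = 0.00136), while Ecm1, a secreted matrix glycoprotein, rose by 1.51 ± 0.35 (adjusted p = 0.0311). Both Egfl6 (3.77 ± 0.41) and Ccn5 (2.72 ± 0.45) were higher in SMC than in MYF (adjusted p = 0.0028 and 0.0116). They were the only 2 of 24 that passed there, a share near the 8.25% of all genes that did. The median was 0.05, against -0.05 over all genes. Ccn5 alone of the 24 passed on all 9 arrays, in MYF minus INM (adjusted p = 0.028). Egfl6 had adjusted p = 0.0513 and Ecm1 0.716 there, and in SMC minus MYF 0 of 24 passed (8 at an unadjusted p under 0.05 by limma), with Egfl6 at 2.48 ± 0.99 and Ccn5 at 2.22 ± 0.60 (adjusted p = 0.309 and 0.156). In SMC minus INM 0 of 24 passed limma's test (6 at an unadjusted p under 0.05), where Tnn, a tenascin, was at -3.69 ± 0.88 and Thbs4 at 3.55 ± 1.28 (adjusted p = 0.161 and 0.316).

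Receptors of these proteins divided as well. Of 18, 3 rose and 4 fell in MYF minus INM (median 0.12, against 0.05 over all genes), and 3 were higher and 4 lower in SMC minus MYF (median 0.02, against -0.05). Of all genes, 10.7% and 8.25% passed in these contrasts. Itga9, an integrin chain whose ligands include tenascin-C and osteopontin, had 9.38 and 7.96 in SMC replicates 2 and 3, 11.36 to 11.46 in MYF and 8.11 to 8.93 in INM, and rose by 2.90 ± 0.41 in MYF minus INM (adjusted p = 0.00426). Itgav, a chain of the integrins that bind many RGD-bearing ligands, rose by 2.46 ± 0.32 (adjusted p = 0.00315). The thrombospondin receptor gene Cd36, also of endothelium and lipid-storing cells, was at -5.17 ± 0.36 and Itgb6, an integrin chain of epithelium, at -4.36 ± 0.51 in the same comparison (adjusted p = 0.000355 and 0.00196). In SMC minus MYF, Lrp1, an endocytic receptor, was at -2.38 ± 0.28 and Itga9 at -2.74 ± 0.46, with Stab1, a scavenger receptor that takes up Sparc, at 5.34 ± 0.55 and Cd36 at 4.83 ± 0.40 (adjusted p = 0.00404, 0.012, 0.00254 and 0.00158). Itga8, whose product pairs with Itgb1 as the receptor of nephronectin, had 9.11 and 8.44 in SMC, 7.62, 10.63 and 8.05 in MYF, and 9.86 to 10.24 in INM, and MYF minus INM was -1.27 ± 0.72 (adjusted p = 0.335). In SMC minus INM 0 of 18 receptors passed limma's test (4 at an unadjusted p under 0.05). On all 9 arrays 0 of 18 passed in MYF minus INM and 0 in SMC minus MYF by limma (5 and 3 at an unadjusted p under 0.05). In MYF minus INM the adjusted p of Itga9, Itgav, Cd36 and Itgb6 then were 0.448, 0.141, 0.249 and 0.0645. In SMC minus MYF, Cd36 was then at 2.47 ± 1.66, Stab1 at 3.69 ± 1.25, Lrp1 at -3.34 ± 0.76 and Itga9 at -4.34 ± 1.19 (adjusted p = 0.467, 0.246, 0.103 and 0.16).

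Of 9 other genes that TGF-beta signalling induces or that act in its feedback, 2 rose in MYF minus INM (where 10.7% of all genes passed), with a median of 0.80 against 0.05 over all genes. These were Skil (1.76 ± 0.32, adjusted p = 0.0133) and Smad7 (1.57 ± 0.40, adjusted p = 0.0454), both inhibitors within the pathway. Skil was also lower in SMC than in MYF, at -2.12 ± 0.36 (adjusted p = 0.0127). It was the only 1 of 9 that passed there, against 8.25% of all genes, with a median of -0.86 against -0.05. In SMC minus INM 0 of 9 passed limma's test, and 0 had an unadjusted p under 0.05. On all 9 arrays 0 of 9 passed in MYF minus INM and 0 in SMC minus MYF by limma (0 and 2 at an unadjusted p under 0.05). Skil and Smad7 then had adjusted p = 0.928 and 1 in MYF minus INM, and Skil 0.231 in SMC minus MYF.

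The genes whose log2 signals followed Tgfbi most closely over the 8 arrays, among 11285 genes at or above the median level, were Ptprs (r = 0.996), the hedgehog receptor gene Ptch1 (0.996), Golim4 (0.993), the metalloprotease gene Adamts14 (0.991) and the endothelin receptor gene Ednrb (0.990). Ptch1 had 7.40 and 7.34 in SMC, 9.08 to 9.28 in MYF and 6.64 to 7.20 in INM. Those most like Tnc were the collagen gene Col27a1 (0.992), Drc3 (0.992), Tmtc1 (0.990), Cyp2b19 (0.980) and Myod1 (0.979). The 8 points fall into the 3 groups, so such values describe mainly the step between MYF and the other groups.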

How the data were processed

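RNA of the sorted cells was amplified with the Ovation PicoSL WTA kit and labelled with Cy3, per the labels' protocols. The deposited values are log2 signals per feature, and limma was used to make them, per the submitters' processing notes, with no version given. The median feature was 5.17 on every array, and the normalization behind this was not checked. Of 62976 features, 43941 had 1 gene symbol in the platform annotation, 19035 had none and 0 had several. Symbols were brought up to date with RefSeq gene records of GRCm38.p6 (33708 by accession, 9763 current, 463 by synonym, 7 kept). Empty cells (1197) stayed empty, and none lay in the 20 features of the 10 genes. Each gene took its probe with the highest mean.

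The fit used R 4.3.3 with limma 3.58.1 (lmFit, eBayes), and files were read by the data.table package at version 1.17.8. It had 1 mean per group and no covariate, and two-sided p-values were adjusted over all genes by Benjamini-Hochberg, with a threshold of 0.05. SMC replicate 1 was left out of the fit for its array-wide correlations. The 10 genes, the gene lists, that choice and the tests were set with earlier results of these data known. Lists are described by counts and medians. They held other matricellular genes, receptors, TGF-beta response genes, and markers of epithelium, endothelium, leukocytes, megakaryocytes, cardiac muscle, mesothelium, cartilage and erythroid cells. All 10 genes were named. Of each list the 2 most positive and 2 most negative genes past the test were candidates, or the 2 with the largest difference. Some genes were named outside this rule: Itga8, after its values were seen, and Epcam, Cdh1, Scgb1a1, Scgb3a2, Sox17, Tek and Itgam. The fit was tested on simulated data. Alternatives were all 9 arrays, a replicate block, centring, a level filter, other probe summaries, a variance trend, array weights, the compared groups alone, a minimum difference of 1 and each array left out. Replicate numbers were not taken as pairs. Deviations from group means correlated at -0.048 to 0.021 within a number and at -0.032 to 0.048 across numbers. The deviations of the 2 SMC arrays mirror each other, so this check is weak and cannot exclude pairing. The number of arrays limits the precision.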

Additional observations from a re-analysis of the deposited data

How the results depend on the processing

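Of the 10 genes, 5 were called in SMC minus MYF, 5 in MYF minus INM and 1 in SMC minus INM. With SMC replicate 1 kept (all 9 arrays) the counts were 0, 1 and 0, and with each other array left out besides they were 0, 0 to 1 and 0. Over all genes the calls then were 160 of 24293, 266 of 24284 and 0 of 24289, against 2003, 2589 and 71 on 8 arrays (1936 at an unadjusted p under 0.05 in SMC minus INM on all 9). On 8 arrays, leaving out each array in turn gave 4 to 5, 4 to 5 and 0 to 1, against 3.23% to 16.7%, 4.7% to 15% and 0.0206% to 4.12% of all genes. Where 1 SMC array was left, it was assumed to vary like the other groups. In MYF minus INM, SMC replicate 1 entered only through the spread that the groups share. With the replicate number as a block the counts were 3, 4 and 0 (3.11%, 6.42% and 0% of all genes). With the compared groups alone they were 2, 5 and 0 (2.59%, 15% and 0%). In SMC minus INM the count was 0 also without genes below the median level, which removed Spp1, with the probe of largest interquartile range, with a variance trend and with each probe as its own unit.

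Some alternatives could hardly differ from the main fit, so the tallies below overstate how far the calls were tried. The array medians were equal, so centring changed next to nothing, and a minimum difference of 1 left p as it was. Tgfbi, Tnxb, Spp1, Thbs2 and Npnt have 1 probe each, so other probe summaries changed their results only through other genes. Tgfbi and Tnc passed in SMC minus MYF and in MYF minus INM under all 17 alternatives that left SMC replicate 1 out or down-weighted it, as did Npnt in MYF minus INM. Spp1 passed in MYF minus INM under all 16 that kept it. Thbs1 passed in MYF minus INM under 11 of 17 (highest adjusted p = 0.0901 by limma). In SMC minus MYF under the alternatives of the same kind, Spp1 passed under 15 of 16, Thbs1 under 14 of 17 and Npnt under 6 of 17 (highest adjusted p = 0.0513, 0.073 and 0.14). Of 777 values of single genes under an alternative, 575 kept direction and side of the threshold, 127 lost the call, 2 gained it, 73 uncalled ones took the other sign and 0 called ones did. Both gains were Postn with the probe of largest interquartile range, its dim probe (-2.84 in SMC minus MYF and 2.27 in MYF minus INM, adjusted p = 0.0289 and 0.037). The causes were not tested.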
